A study of Mus musculus with 9 samples.

Results

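Nrf1, the product of the *Nfe2l1* gene, is a transcription factor of the CNC-bZIP family that is made as a glycoprotein of the endoplasmic reticulum membrane and reaches the nucleus only after other proteins have worked on it. The ATPase p97, encoded by *Vcp*, pulls it out of the membrane, the N-glycanase Ngly1 removes its sugar chains, and the aspartic protease Ddi2 cuts it near its N-terminus to release the active factor. The F-box proteins Fbxw7 and β-TrCP (encoded by *Btrc*) present it to SCF ubiquitin ligases for degradation, whereas the O-GlcNAc transferase Ogt and its partner Hcfc1 are known to bind and stabilize it. The mRNA levels of these 7 genes were followed in neonatal rat ventricular myocytes (NRVMs) that overexpressed LacZ, Nrf1 or Nrf2. The genes were chosen by symbol, for what their proteins do to Nrf1, out of 15122 gene symbols listed for the experiment. Values were found for 6 of the 7 genes, and *Fbxw7* was not analysed here.

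NRVMs are primary heart muscle cells, here isolated from Sprague Dawley rats of 1 to 2 days of age. They were cultured for 48 h, infected at a multiplicity of infection of 50, and collected 48 h after infection. All 3 groups carried an adenoviral vector with the CMV promoter, which is active in many cell types, and a red fluorescent protein. The vector expressed β-galactosidase in the LacZ group, mouse Nrf1 in the Nrf1 group and mouse Nrf2 in the Nrf2 group, with 3 libraries in each. The labels give the species as mouse, whereas the strain, the cell type and the genome build (Rnor 6.0) are those of the rat. The labels do not say whether the libraries of a group came from separate cultures, so the p-values measure only the spread between these libraries, which may be technical.

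The deposited tables hold, for each pair of groups, the mean normalized read count of each group. A normalized read count is the number of reads on a gene divided by a size factor for the depth of the library, set by the authors separately in each table. The reads of each library were recovered from these means and came to between 7759856 and 11960485 per library. Levels were therefore compared within a table only, and because gene lengths for the rat were not at hand, the levels of different genes were not compared with each other. Libraries are named by the order of their depth in the group (library 1 is the deepest), which cannot be tied to the sample numbers of the labels. *Nfe2l2*, which encodes Nrf2, had 3486, 3425 and 3513 normalized counts in the LacZ libraries and 79249, 77916 and 68031 in the Nrf2 libraries. Reads of the mouse transgene and of the rat gene cannot be told apart in this value. The overexpression of Nrf1 was not checked, since *Nfe2l1* was not analysed here.

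The cultures also held other cells. The summed level of 10 fibroblast markers, in counts per library scaled to the same total (CPM), was between 13261 and 14150 in LacZ libraries, between 3239 and 3481 in Nrf1 libraries and between 6553 and 7101 in Nrf2 libraries. All 10 fell in Nrf1 samples and 9 of 10 in Nrf2 samples (adjusted p under 0.05, limma), and none was under 1 CPM in any group. Most of the fibroblast sum came from the collagen genes *Col1a1* and *Col3a1*. Their LacZ means in the comparison with Nrf1 were 86236 and 24974 normalized counts, beside 72.4 for *Tcf21* and 49.6 for *Fap*. The sum of the 9 cardiomyocyte markers with values (*Ttn* was not analysed here) was between 13951 and 15755 in LacZ, 14340 and 14477 in Nrf1 and 15555 and 15928 in Nrf2 libraries, so that the labelled cell type was marked in every library. Single cardiomyocyte markers moved apart under this sum: with Nrf1 5 of the 9 fell and 2 rose, with *Myh7* (-1.07), *Myl2* (-0.997) and *Tnni3* (-0.96) called lower, past a 1.5-fold change, and *Actc1* (0.64) and *Ryr2* (0.83) called higher on the log2 scale. With Nrf2 6 rose and 2 fell, and 0 were called. Sums over 10 leukocyte markers were between 190 and 279, 107 and 108, and 99.2 and 111 CPM, in the same order of groups, and those over 8 endothelial markers were between 155 and 162, 107 and 119, and 104 and 128. Those over 6 smooth muscle markers were between 3601 and 4268, 6163 and 6270, and 4861 and 5184. With Nrf1 3 of these 6 rose and 2 fell. *Acta2* (0.84) and *Tagln* (0.84) were called higher and *Myh11* (-1.01) lower. With Nrf2 4 rose and 2 fell, and *Cnn1* (0.82) was called higher. The paper reports *Acta2* in part of the cardiomyocytes of the newborn mouse heart, so this sum does not mark smooth muscle cells alone. Of the leukocyte markers 9 of 10 fell with each factor, while *Csf1r* rose with Nrf1 (0.45, adjusted p = 0.00392, limma). *C1qb* was on average under 1 CPM in the Nrf1 group. Of the endothelial markers 6 of 8 fell with Nrf1 and 5 with Nrf2. *Egfl7* rose with both factors (0.34 with Nrf1 and 0.78 with Nrf2) and was called with Nrf2. The part of these other cells in the results that follow was not tested, and in bulk samples fewer cells of a type cannot be told apart from less RNA per cell.

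*Vcp* was the gene of the group with the largest change in either comparison with LacZ. Nrf1 raised it 1.95-fold and Nrf2 raised it 1.53-fold, and the level in Nrf2 samples was below that in Nrf1 samples. In the table of Nrf1 and LacZ, the LacZ libraries had 7999, 7820 and 8037 normalized counts and the Nrf1 libraries 15423, 15721 and 15490. The groups lay far apart, with a spread of 1.46% (coefficient of variation, CV) within LacZ and 1.01% within Nrf1. The means were 7952 ± 116 and 15544 ± 157 (SD, n = 3), a log2 fold change of 0.97 ± 0.03 (SE, adjusted p = 3.03e-13, limma), the 505th largest of 11367 genes tested. A gene was called where the fold change exceeded 1.5 and the adjusted p was under 0.05, and *Vcp* was the only member called in this comparison, where 11.2% of all genes tested were called higher and 16.7% lower.

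In the table of Nrf2 and LacZ, *Vcp* had 8529, 8371 and 8576 normalized counts in LacZ libraries and 12852, 12923 and 13220 in Nrf2 libraries. Again no library of one group reached the range of the other. The means of 8492 ± 108 and 12998 ± 195 (SD, n = 3) gave a log2 fold change of 0.61 ± 0.03 (SE, adjusted p = 7.88e-10, limma). *Vcp* was the only member called here as well, beside 9% of all genes tested that were called higher and 9.36% lower. Its 95% interval of 0.55 to 0.68 includes the cutoff of 1.5-fold, and with libraries scaled by their totals the log2 fold change was 0.53 and the call was lost. When the groups were compared directly, the Nrf1 libraries had 17215, 17517 and 17296 and the Nrf2 libraries 13355, 13420 and 13746 normalized counts, a log2 fold change of Nrf2 over Nrf1 of -0.36 ± 0.02 (SE, adjusted p = 1.05e-11, limma). The difference was under the fold-change cutoff, and 0 members were called between the factors, beside 10.9% of all genes tested that were called higher with Nrf2 and 4.6% lower.

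The promoter of *Vcp* is shown here because it was the only promoter among those of the members that holds the core of the antioxidant response element, the DNA motif to which Nrf1 and Nrf2 bind with small Maf proteins. RefSeq promoters (250 bases before to 50 after a transcription start) were at hand for the mouse only, so this describes the mouse gene and not the rat genome in which the reads were counted. The motif TGACNNNGC was searched on both strands of the 9 promoters listed for 6 members, *Btrc* having none in the table. These 6 members include *Fbxw7*, whose level was not analysed here. *Fbxw7* and *Ogt* have more than 1 promoter each, and those of *Ogt* overlap. The motif was found in 1 of the 9 promoters, or in 1 of the 6 members, and 12.4% of all 32851 mouse promoters hold it. The bases from -160 to -81 before the start of *Vcp* on the minus strand (GRCm38.p6, chr4:43000588-43000667) are printed 5′ to 3′ with the match, which begins at -114, in capitals:

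Vcp: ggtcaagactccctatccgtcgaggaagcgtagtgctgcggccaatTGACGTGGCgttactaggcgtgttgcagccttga

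A match is a description of the sequence and not a bound site, and the lack of a match in the other promoters speaks only of these letters in these windows.

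**Figure D1:**
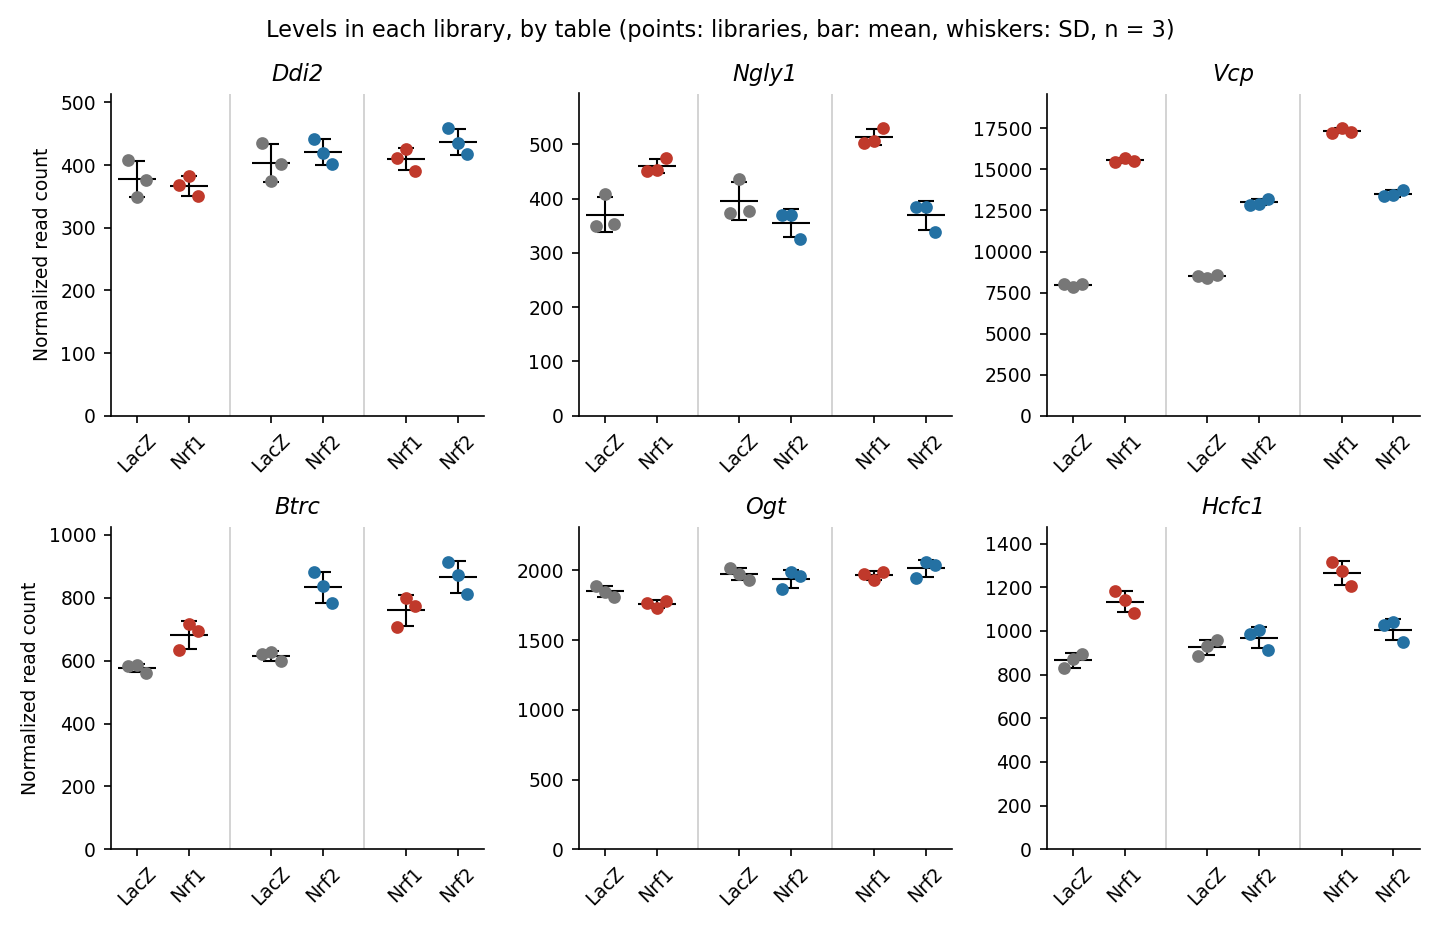
Normalized read counts (vertical axes, each from 0) of the 6 genes with values, for the groups of the 3 tables, which are separated by grey lines; points are libraries, horizontal bars means and whiskers the SD (n = 3). *Vcp* stands apart in each table, from 7952 in LacZ to 15544 in Nrf1 samples and from 8492 in LacZ to 12998 in Nrf2 samples, while *Ddi2* and *Ogt* lie at about the same height in all groups.

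Of the enzymes that act on Nrf1 after p97, *Ngly1* rose with Nrf1 and *Ddi2* did not pass the test in any comparison. *Ngly1* had 350, 408 and 353 normalized counts in LacZ libraries and 451, 453 and 475 in Nrf1 libraries. The lowest Nrf1 library was above the highest LacZ library, library 2. The means were 370 ± 32.5 and 460 ± 13.1 (SD, n = 3), a log2 fold change of 0.31 ± 0.07 (SE, adjusted p = 0.000853, limma).

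With Nrf2, *Ngly1* went the other way in size, without passing the test. It had 373, 437 and 377 normalized counts in LacZ and 370, 371 and 325 in Nrf2 libraries, and the highest Nrf2 library lay just below the lowest LacZ library. The log2 fold change was -0.15 ± 0.08 (SE, 95% interval -0.32 to 0.01, adjusted p = 0.113, limma), and it was -0.24 (adjusted p = 0.0210, limma) with libraries scaled by their totals. In the direct comparison, *Ngly1* had 503, 505 and 530 normalized counts in Nrf1 libraries and 385, 385 and 338 in Nrf2 libraries. The groups were well separated, and the log2 fold change of Nrf2 over Nrf1 was -0.48 ± 0.06 (SE, adjusted p = 3.29e-06, limma), the largest difference between the factors among the 6 genes.

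*Ddi2* had 408, 350 and 376 normalized counts in LacZ libraries and 369, 382 and 350 in Nrf1 libraries. The groups overlapped, and the log2 fold change was -0.04 ± 0.07 (SE, 95% interval -0.19 to 0.11, adjusted p = 0.625, limma). In the table of Nrf2 and LacZ the values were 435, 374 and 402 against 442, 419 and 401, again overlapping, with a log2 fold change of 0.06 ± 0.07 (SE, 95% interval -0.09 to 0.21, adjusted p = 0.480, limma). Nrf2 samples differed from Nrf1 samples by 0.09 ± 0.06 (SE, 95% interval -0.03 to 0.22, adjusted p = 0.187, limma). A change in *Ddi2* of 1.5-fold, 0.58 on the log2 scale, lies outside all 3 intervals. *Ddi1*, the paralog of *Ddi2*, had between 0 and 3 reads in each of the 9 libraries and was below the filter for testing.

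The ubiquitin ligase gene *Btrc* was the only member whose level with Nrf2 exceeded that with Nrf1 past the test. It had 582, 586 and 561 normalized counts in LacZ libraries and 633, 718 and 694 in Nrf1 libraries. The groups did not overlap, with library 1 of Nrf1 closest to LacZ, and the log2 fold change was 0.24 ± 0.06 (SE, adjusted p = 0.00163, limma). The Nrf2 table gave 621, 628 and 598 normalized counts for LacZ and 881, 839 and 782 for Nrf2 libraries.

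All Nrf2 libraries were above all LacZ libraries, with means of 834 ± 49.7 and 616 ± 15.3 (SD, n = 3) and a log2 fold change of 0.44 ± 0.05 (SE, adjusted p = 1.06e-05, limma). Directly compared, *Btrc* had 706, 800 and 775 normalized counts in Nrf1 libraries and 916, 871 and 813 in Nrf2 libraries, and the lowest Nrf2 library was close to the highest Nrf1 library. The difference of 0.19 ± 0.05 (SE, adjusted p = 0.00561, limma) passed the test. *Fbxw11*, which encodes the paralogous F-box protein β-TrCP2, fell instead, by a log2 fold change of -0.19 ± 0.05 with Nrf1 (SE, adjusted p = 0.00215, limma) and of -0.24 ± 0.05 with Nrf2 (SE, adjusted p = 0.000495, limma). It had 1362, 1477 and 1438 normalized counts in LacZ and 1265, 1298 and 1193 in Nrf1 libraries, and 1452, 1581 and 1534 against 1342, 1264 and 1270 in the Nrf2 table, with no overlap in either. Nrf2 and Nrf1 samples differed in *Fbxw11* by -0.06 ± 0.04 (SE, 95% interval -0.14 to 0.03, adjusted p = 0.234, limma).

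Of the stabilizing pair, *Hcfc1* rose with Nrf1 and *Ogt* did not pass the test in any comparison. *Hcfc1*, which encodes a chromatin-bound co-regulator that Ogt cuts and modifies, had 830, 870 and 896 normalized counts in LacZ libraries and 1180, 1142 and 1081 in Nrf1 libraries. The groups did not overlap, and the log2 fold change was 0.39 ± 0.05 (SE, adjusted p = 3.69e-06, limma). In the Nrf2 table, *Hcfc1* had 885, 931 and 956 normalized counts in LacZ and 986, 1004 and 915 in Nrf2 libraries.

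These values overlap, since library 3 of Nrf2 lies within the LacZ range, and the log2 fold change was 0.07 ± 0.05 (SE, 95% interval -0.04 to 0.18, adjusted p = 0.283, limma). Its sign turned, to -0.02, with libraries scaled by their totals. Nrf1 libraries had 1318, 1272 and 1207 normalized counts in the direct comparison and Nrf2 libraries 1025, 1043 and 951, a log2 fold change of Nrf2 over Nrf1 of -0.33 ± 0.04 (SE, adjusted p = 4.49e-06, limma). *Hcfc2*, the paralog of *Hcfc1*, had a log2 fold change of 0.06 ± 0.06 with Nrf1 (SE, adjusted p = 0.331, limma) and of -0.14 ± 0.06 with Nrf2 (SE, adjusted p = 0.0506, limma), and Nrf2 samples lay below Nrf1 samples by a log2 difference of -0.21 ± 0.05 (SE, adjusted p = 0.00180, limma). The value with Nrf1 turned to -0.00421 with libraries scaled by their totals. The value with Nrf2 passed the test with that scaling (-0.23, adjusted p = 0.00404, limma), with fold changes re-centred on the median (0.0318), with voom weights (0.0453), in one fit over the 9 libraries (0.0390) and without library 3 of LacZ (0.0308).

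*Ogt* had 1892, 1847 and 1809 normalized counts in LacZ libraries and 1768, 1731 and 1782 in Nrf1 libraries. The Nrf1 libraries all lay below the LacZ libraries by a small step, and the log2 fold change of -0.07 ± 0.04 (SE, 95% interval -0.15 to 0.01) did not pass the test (adjusted p = 0.112, limma). It did pass with libraries scaled by their totals (-0.14, adjusted p = 0.00385, limma) and after re-centring on the gene of median change (-0.13, adjusted p = 0.00875, limma). In the Nrf2 table the values were 2017, 1977 and 1930 for LacZ and 1870, 1988 and 1960 for Nrf2 libraries. They overlapped, and the log2 fold change was -0.03 ± 0.04 (SE, 95% interval -0.11 to 0.06, adjusted p = 0.592, limma), or -0.11 (adjusted p = 0.0224, limma) with libraries scaled by their totals. The difference between Nrf2 and Nrf1 samples was 0.04 ± 0.03 (SE, 95% interval -0.03 to 0.11, adjusted p = 0.359, limma).

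**Figure D2:**
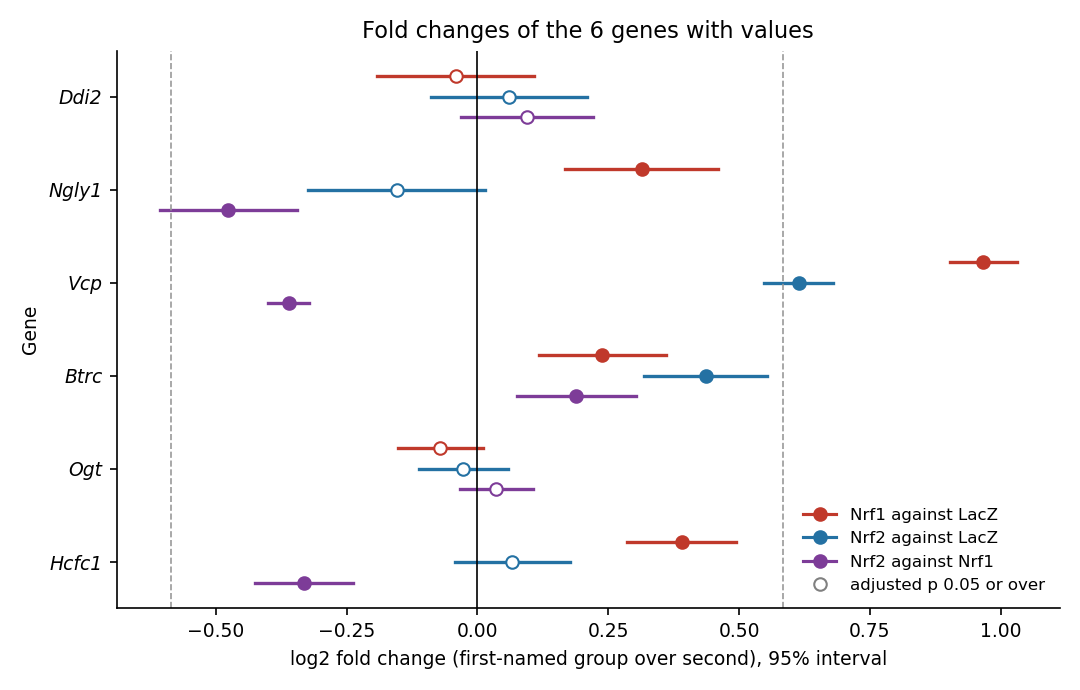
Log2 fold changes (horizontal axis) with 95% intervals of the 6 genes in the 3 comparisons, with filled points where the adjusted p was under 0.05 and dashed lines at a 1.5-fold change. *Vcp* lies past the dashed line in both comparisons with LacZ (0.97 and 0.61). *Vcp*, *Ngly1*, *Hcfc1* and *Btrc* have filled points for Nrf2 against Nrf1, and the intervals of *Ddi2* and *Ogt* include 0 throughout.

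By the adjusted p alone, Nrf1 samples exceeded LacZ samples in 4 of the 6 genes (*Vcp*, *Hcfc1*, *Ngly1* and *Btrc*) and fell below them in 0. Among all genes tested in that comparison, 34.4% were higher and 32.2% lower by the same rule, and 36.2% and 34.1% had groups that did not overlap in the higher and in the lower direction. The groups did not overlap for these 4 genes and, in the lower direction, for *Ogt*. With Nrf2, 2 of the 6 were higher (*Vcp* and *Btrc*) and 0 lower, beside 28.6% higher and 26% lower among all genes tested, and the groups did not overlap for these and, in the lower direction, for *Ngly1*, beside 31.7% and 29.9% of all genes. In the direct comparison, 1 of the 6 was higher with Nrf2 (*Btrc*) and 3 were lower (*Vcp*, *Hcfc1* and *Ngly1*), beside 28.8% and 30.1% of all genes, with no overlap for the same 4 genes, beside 31.2% and 32.6%. The counts by the adjusted p were the same when any 1 library was left out.

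Over the 6 genes, the median log2 fold change was 0.28 with Nrf1, 0.06 with Nrf2 and -0.15 for Nrf2 over Nrf1. The medians of all genes tested were 0.00, -0.00 and -0.01. The comparisons share libraries in pairs, and each is given with its own values only.

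**Figure D3:**
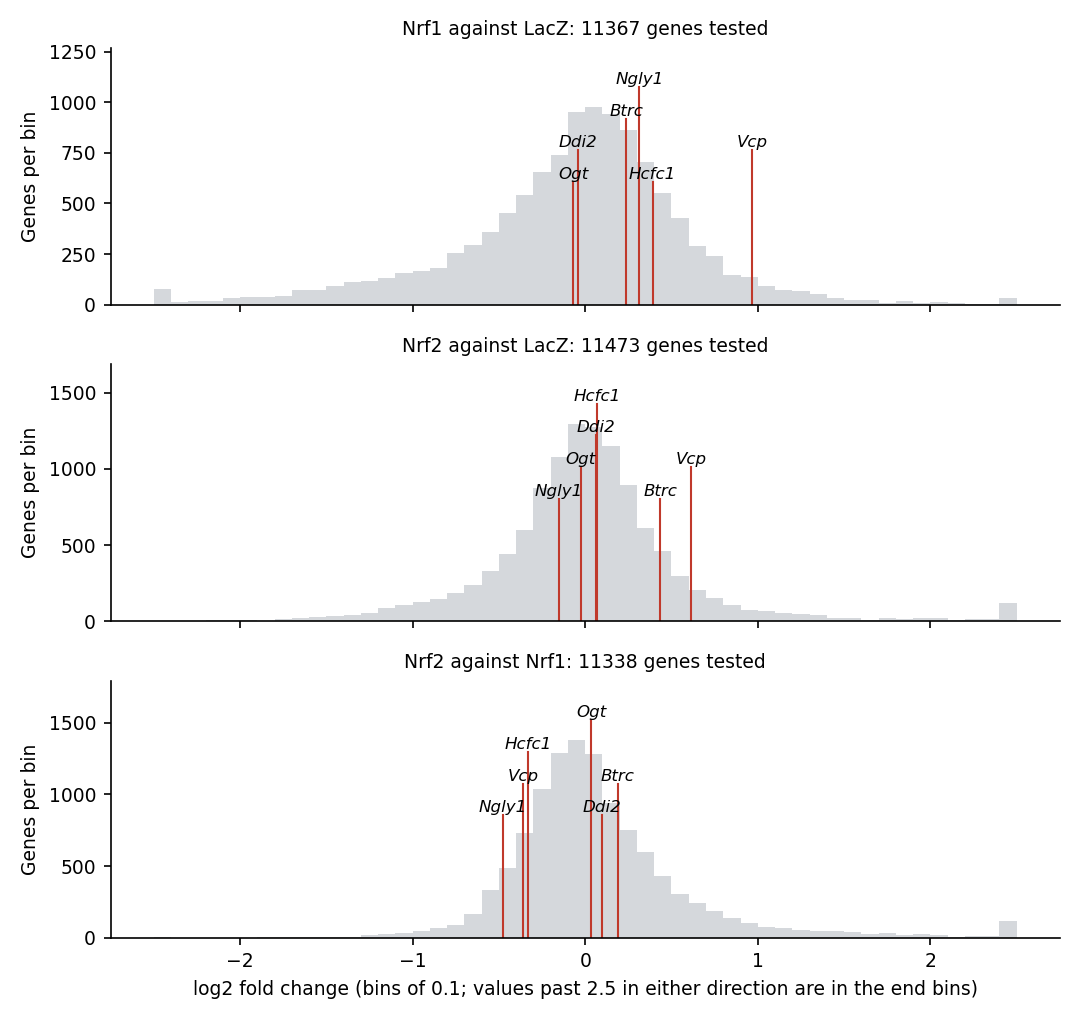
Distribution of the log2 fold change (horizontal axis) over all genes tested in each comparison (vertical axis, number of genes per bin of 0.1), with red lines at the values of the 6 genes. *Vcp* is in the upper flank with Nrf1 (0.97) and with Nrf2 (0.61), and the other 5 genes lie between -0.15 and 0.44 in both comparisons with LacZ.

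The genes whose pattern was most like that of *Vcp* were *Eaf1*, *Polr2e* and *Slirp*, measured as the distance between the log2 ratios of the authors' group means for Nrf1 over LacZ and Nrf2 over LacZ, among 8445 genes. Their log2 ratios were 0.96, 0.98 and 0.99 with Nrf1 and 0.60, 0.63 and 0.62 with Nrf2, at distances of 0.0216, 0.0218 and 0.0282. Nearest to *Ngly1* were *Cenpu*, *St3gal6* and *Zmynd19*, with log2 ratios of 0.33, 0.30 and 0.32 with Nrf1 and -0.15, -0.16 and -0.17 with Nrf2. This likeness rests on 2 ratios that share their LacZ libraries, and it says nothing of shared control.

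Partners and relatives of the 7 genes were taken from a list of 54 genes, of which 49 had values and 48 were tested. In Nrf1 samples 28 of the 48 were higher and 8 lower than in LacZ samples by the adjusted p, and 13 were called higher and 2 lower. Among all genes tested, 34.4% were higher and 32.2% lower, and 11.2% were called higher and 16.7% lower. The median log2 fold change of the 48 was 0.27. In Nrf2 samples 19 were higher and 8 lower, with 4 called higher and 0 lower and a median of 0.09, beside 28.6% higher, 26% lower, 9% called higher and 9.36% called lower among all genes. With libraries scaled by their totals the number lower with Nrf2 was 13.

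The p97 cofactors are proteins that recruit the ATPase to its substrates or trim the ubiquitin chains on them, and with Nrf1 12 of the 17 tested rose and 0 fell, beside 34.4% and 32.2% of all genes. *Ufd1l* and *Nploc4* encode the heterodimer that guides p97 to ubiquitylated proteins of the endoplasmic reticulum, and they rose by 0.95 ± 0.04 and 0.76 ± 0.04 on the log2 scale (SE; adjusted p = 2.24e-11 and 1.12e-10, limma). *Nsfl1c*, the gene of the cofactor p47, went from a mean of 1282 to 2519 normalized counts. *Plaa*, whose product binds ubiquitin and p97, went from 1092 to 2182. Of the genes for proteins with a UBX domain, which docks on p97, *Ubxn2a* rose from 213 to 565, *Ubxn4* from 1660 to 3803, *Ubxn1* from 971 to 1467 and *Faf1* from 995 to 1552. These 8 were all of the cofactors called, beside 11.2% of all genes called higher.

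With Nrf2, 7 of the 17 cofactors rose and 1 fell, beside 28.6% and 26% of all genes, and the called ones were *Nsfl1c* (log2 fold change 0.76 ± 0.04, adjusted p = 3.69e-09, limma) and *Plaa* (0.73 ± 0.04, adjusted p = 3.93e-09, limma). The one that fell was *Vimp*, named after its value was seen (-0.23 ± 0.06, adjusted p = 0.00320, limma). With libraries scaled by their totals 2 fell, and *Nploc4*, among those that rose, no longer passed the test (adjusted p = 0.107, limma). *Ufd1l* did not pass the test with Nrf2 (0.09 ± 0.04, adjusted p = 0.0798, limma). Directly compared, Nrf2 samples were below Nrf1 samples in 14 of the 17 and above them in 0, beside 30.1% and 28.8% of all genes tested. Of these, *Ubxn2a* (-1.06 ± 0.06), *Ufd1l* (-0.87 ± 0.03), *Ubxn4* (-0.78 ± 0.03) and *Nploc4* (-0.60 ± 0.03) were called.

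Of 5 tested relatives and partners of Ngly1 and Ddi2, 4 rose with Nrf1, 3 of them past the fold-change cutoff, beside 34.4% and 11.2% of all genes. None fell with Nrf1, beside 32.2% of all genes. With Nrf2 3 rose and 2 fell, beside 28.6% and 26% of all genes. Only 1 fell without library 2 of LacZ or without library 3 of Nrf2. *Rad23b*, which encodes a shuttle protein that binds both Ngly1 and the proteasome, rose from a mean of 5244 to 8866 normalized counts, a log2 fold change of 0.76 ± 0.03 (SE, adjusted p = 8.71e-12, limma). *Ube4a*, the gene of a ubiquitin chain elongation factor, went from 1047 to 2142 (1.03 ± 0.04). *Nrip3*, whose product is related to Ddi2 in its protease-like domain, had the largest change of the list, from 417 to 1478 (1.83 ± 0.06, adjusted p = 4.63e-13, limma), and was also called with Nrf2 (1.04 ± 0.07, adjusted p = 9.25e-09, limma). In the direct comparison *Nrip3* and *Ube4a* were called lower with Nrf2, at -0.79 ± 0.04 and -0.63 ± 0.03.

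Among 7 SCF ligase parts and relatives, 4 rose and 2 fell with Nrf1, beside 34.4% and 32.2% of all genes, and 5 rose and 1 fell with Nrf2, beside 28.6% and 26%. With libraries scaled by their totals, 3 rose with Nrf2. *Skp1*, the adaptor that joins F-box proteins such as β-TrCP to the cullin, was called with both factors, at 0.83 ± 0.04 with Nrf1 (SE, adjusted p = 4.08e-11, limma) and 0.77 ± 0.04 with Nrf2 (SE, adjusted p = 1.11e-09, limma). *Rbx1*, the RING subunit, was called with Nrf1 (0.76 ± 0.05, adjusted p = 6.38e-10, limma) and rose under the cutoff with Nrf2 (0.37 ± 0.05, adjusted p = 1.49e-05, limma). The genes that fell with Nrf1 were *Fbxw11* and the deubiquitinase gene *Usp28*, the latter named after its value was seen (-0.17 ± 0.05, adjusted p = 0.00866, limma). Of 5 kinase genes for the phosphorylation that F-box proteins read, 4 rose with Nrf1 and 2 with Nrf2, beside 34.4% and 28.6% of all genes, and 0 were called. Of all genes tested, 11.2% were called higher and 16.7% lower with Nrf1, and 9% and 9.36% with Nrf2. *Gsk3a* and *Gsk3b*, named after their values were seen, had log2 fold changes of 0.49 ± 0.04 and 0.12 ± 0.04 with Nrf1 and of 0.09 ± 0.04 and 0.56 ± 0.04 with Nrf2, and both differed between the factors (-0.41 ± 0.04 and 0.43 ± 0.04 for Nrf2 over Nrf1, adjusted p = 2.21e-08 and 1.13e-08, limma). The value of *Gsk3b* with Nrf1 no longer passed with libraries scaled by their totals (adjusted p = 0.324, limma), with fold changes re-centred on the median (0.197), without library 3 of LacZ (0.111) or without library 1 of Nrf1 (0.117).

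The O-GlcNAc cycle comprises the enzymes that make UDP-GlcNAc, the sugar donor of Ogt, and the enzyme that takes the modification off again. With Nrf1, 5 of its 7 genes fell and 1 rose, beside 32.2% and 34.4% of all genes tested. *Gfpt2*, a paralog of the entry enzyme of the hexosamine pathway, went from a mean of 416 to 153 normalized counts (-1.43 ± 0.09, adjusted p = 1.80e-09, limma), and *Uap1*, the last enzyme of UDP-GlcNAc synthesis, from 771 to 496 (-0.63 ± 0.05, adjusted p = 3.39e-08, limma). The others that fell, named after their values were seen, were *Pgm3* (-0.58 ± 0.08), *Mgea5*, the gene of the O-GlcNAcase (-0.30 ± 0.05), and *Gfpt1* (-0.26 ± 0.05). *Nagk*, a kinase that salvages GlcNAc, rose with Nrf1 (0.38 ± 0.07, adjusted p = 0.000154, limma) and fell with Nrf2 (-0.44 ± 0.07, adjusted p = 0.000114, limma). With Nrf2, 1 of the 7 rose and 2 fell, or 4 with libraries scaled by their totals, beside 28.6% and 26% of all genes. The one that rose was *Gfpt2*, from 444 to 647 (0.55 ± 0.08, adjusted p = 4.88e-05, limma), and between the factors it differed by 1.97 ± 0.07 on the log2 scale (Nrf2 over Nrf1, adjusted p = 3.38e-14, limma). Directly compared, 5 of the 7 were higher with Nrf2 and 1 lower, beside 28.8% and 30.1% of all genes. Of these, *Gfpt2* was called higher and *Nagk* lower (-0.83 ± 0.07, adjusted p = 1.20e-08, limma), beside 10.9% and 4.6% of all genes. The 10 fibroblast markers fell with Nrf1, as *Gfpt2* did, and 9 of them fell with Nrf2, where *Gfpt2* rose, and their part in its values was not tested.

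Of 7 tested partners and relatives of Hcfc1, 3 rose and 1 fell with Nrf1, 1 rose and 2 fell with Nrf2, and 0 were called in any comparison. Among all genes tested 34.4% rose and 32.2% fell with Nrf1, and 28.6% rose and 26% fell with Nrf2. The shares called higher and lower were 11.2% and 16.7% with Nrf1 and 9% and 9.36% with Nrf2. For Nrf2 over Nrf1 they were 10.9% and 4.6%. Those that rose with Nrf1, named after their values were seen, were *Bap1*, which encodes a deubiquitinase bound to Hcfc1 (0.40 ± 0.04, adjusted p = 4.36e-07, limma), *Thap11* (0.30 ± 0.08, adjusted p = 0.00323, limma) and *Hcfc1r1* (0.14 ± 0.05, adjusted p = 0.0372, limma), and the one that fell was *Zfp143* (-0.23 ± 0.07, adjusted p = 0.00567, limma). The value of *Hcfc1r1* with Nrf1 no longer passed with libraries scaled by their totals (adjusted p = 0.269, limma), with fold changes re-centred on the median (0.198), or without any 1 of the 6 libraries other than library 1 of LacZ (adjusted p between 0.0581 and 0.137, limma). With Nrf2, *Hcfc1r1* rose (0.28 ± 0.05, adjusted p = 0.000445, limma) and *Wdr5* (-0.29 ± 0.06, adjusted p = 0.00102, limma) and *Zfp143* (-0.31 ± 0.07, adjusted p = 0.00207, limma) fell. With libraries scaled by their totals or fold changes re-centred on the median, 2 fell with Nrf1, and with libraries scaled by their totals 4 fell with Nrf2.

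**Figure D4:**
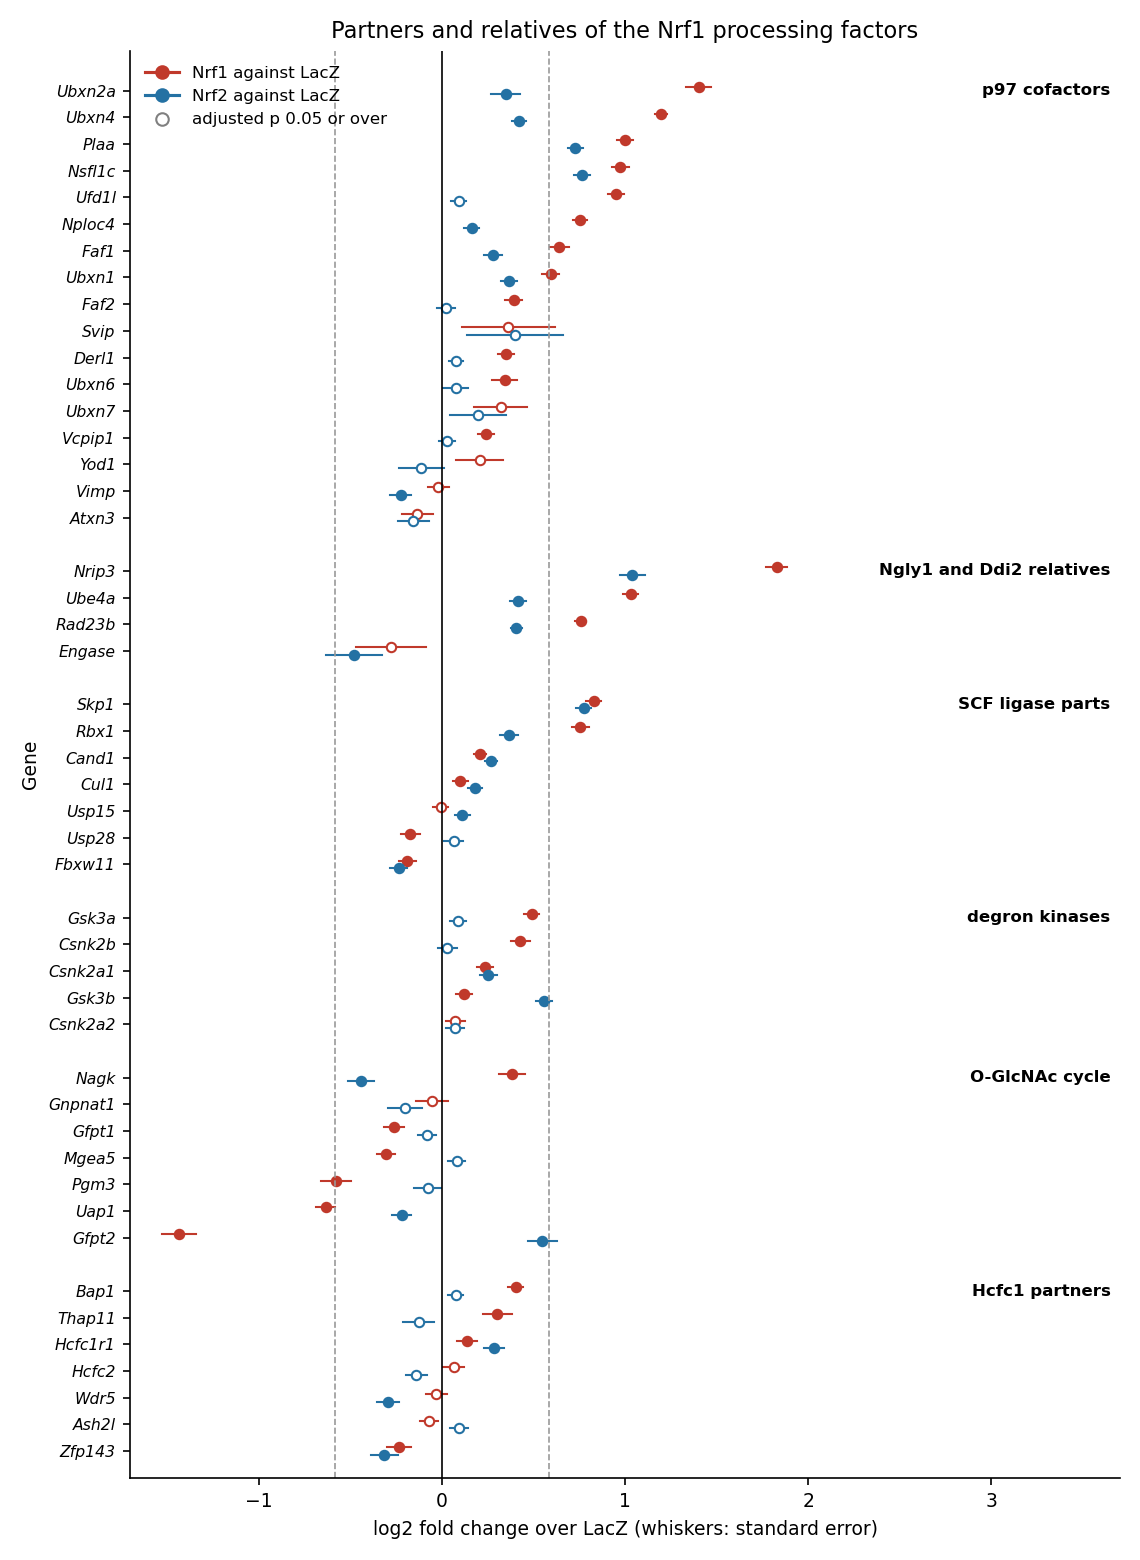
Log2 fold changes over LacZ (horizontal axis, whiskers the SE) of tested partners and relatives, by group and in the order of their values with Nrf1 (red) beside those with Nrf2 (blue), with filled points where the adjusted p was under 0.05 and dashed lines at a 1.5-fold change. The upper cofactors of p97 lie right of the line with Nrf1, up to 1.40 for *Ubxn2a*, while *Gfpt2* lies at -1.43 with Nrf1 and at 0.55 with Nrf2.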

How the data were processed

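NRVMs overexpressing LacZ, Nrf1 or Nrf2 were sequenced as 75-bp single-end reads of stranded mRNA libraries. Per the paper and the submitters' processing notes, reads were checked with FastQC 0.11.4, aligned to Rnor 6.0 with HISAT2 2.0.4, stripped of duplicates with SAMtools 0.1.18, counted with featureCounts 1.6.0 and compared with edgeR 3.20.5. The strand setting of the counting is not given in the sources used here, and removal of duplicates can lower the counts of abundant genes. The signal the authors deposited is, per gene and pair of groups, the mean of each group's normalized read counts. The columns of the authors' own comparison (fold change, log2 fold change, p-value and adjusted p-value) were not used, and 0 columns of single samples were left unused.

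Each deposited mean is a sum of whole reads of 3 libraries, each multiplied by a step set by the library's size factor. Since each group is in 2 tables with different size factors, the reads were solved for exactly, with 1 solution for 14649 of 14657 LacZ genes, 14579 of 14579 Nrf1 genes and 14746 of 14746 Nrf2 genes. Solving genes with a mean below 30 from each table alone gave the same reads for 100% of them, and in a simulation with known reads 14150 of 14154, 13934 of 13934 and 14292 of 14292 genes were recovered with 0 wrong. The 8 LacZ genes without a unique solution are no members and were left out, as were 26 symbols written as dates in each table with LacZ. The deposited values are group means and not counts, and a log-scale model was used although the reads were recovered. No count model was run. Genes over 1 CPM in at least 3 of the 6 libraries (the study's filter) were tested with limma 3.58.1 in R 4.3.3 (lmFit, eBayes with trend) on log2(normalized count + 1), which understates changes of low genes, with Benjamini-Hochberg adjustment over all genes tested (11367, 11473 and 11338 for Nrf1 against LacZ, Nrf2 against LacZ and Nrf2 against Nrf1). Intervals are at 95%. "Rose", "fell", "higher" and "lower" mean an adjusted p under 0.05, and a call also needs a fold change over 1.5. Simulated counts were tested by the adjusted p alone, without the fold-change cutoff. In these comparisons 71, 68 and 73 of 100 genes changed by 0.6 on the log2 scale passed in the right direction. Of 100 genes changed by 1, 92, 94 and 98 did so, and 7, 3 and 8 unchanged genes passed. Far fewer genes were changed in the simulation than passed in the data, so these numbers are no error rates for the data. Libraries of a group differed by more than sampling noise (chi-square per degree of freedom of 1.48 to 4.93), so none was a copy.

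The members and lists were chosen with earlier results of these data known. Named were all members, the paralogs *Ddi1*, *Fbxw11* and *Hcfc2*, *Nfe2l2*, every called gene of the partner lists and the 3 genes nearest to *Vcp* and to *Ngly1* among those with a mean of at least 100 in one group of each table. Of the listed partners, 5 were not analysed here, among them *Aspscr1*, *Nrip2*, *Asprv1* and *Kansl1*. Another, which was tested, is counted in its list but is not reported here by name or in the plot of the lists. Alternatives were other pseudocounts (0.5, 5), filters, scalings, cutoffs, voom weights, 1 fit over 9 libraries, ratios of the deposited means, and leaving out each library.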

Additional observations from a re-analysis of the deposited data

How the results depend on the processing

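No paired analysis was possible because the recovered libraries carry no replicate number. Precision is limited by 3 libraries a group and, for *Ddi2* and *Ngly1*, by read counts between 316 and 530 per library. Under the 15 settings tried for each, the direction and the side of the test were kept for *Vcp*, *Hcfc1*, *Ngly1* and *Btrc* with Nrf1 (log2 fold changes of 0.90 to 0.97, 0.32 to 0.42, 0.24 to 0.39 and 0.17 to 0.29), for *Vcp* and *Btrc* with Nrf2 (0.53 to 0.62 and 0.35 to 0.48), and for *Vcp*, *Hcfc1*, *Ngly1* and *Btrc* between the factors (-0.37 to -0.33, -0.36 to -0.29, -0.51 to -0.41 and 0.14 to 0.23).

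Scaling by library totals shifts the median gene by -0.07 with Nrf1 and -0.09 with Nrf2. It left 0 members called with Nrf2 (*Vcp* at 0.53), made 1 member lower with Nrf1 (*Ogt*, -0.14, or -0.13 re-centred on the median gene, again 1 member) and 2 lower with Nrf2 (*Ngly1*, -0.24, and *Ogt*, -0.11), and turned the sign of values that passed no test: with Nrf2 *Ddi2* (-0.0258), *Hcfc1* (-0.0198), *Mgea5* (-0.00573), *Usp28* (-0.0218) and *Bap1* (-0.0117), and with Nrf1 *Hcfc2* (-0.00421). Leaving out library 1 of LacZ did so for *Ddi2* and *Vimp* with Nrf1, whose values ran from -0.0958 to 0.0148 and from -0.0527 to 0.0286 as each library was left out. The cause was not tested.

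At a fold change of 2, 0 members were called with Nrf1 and 0 with Nrf2, and 453 and 1026, 490 and 421, and 601 and 125 genes were called higher and lower in the 3 comparisons. By the adjusted p alone, 4 members were called with Nrf1, 2 with Nrf2 and 1 higher and 3 lower between the factors, among 3906 and 3662, 3285 and 2979, and 3267 and 3416 genes.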
